A study of Marchantia polymorpha and Arabidopsis thaliana with 54 samples.

Results

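Wild-type seedlings of Arabidopsis thaliana, a small flowering plant used as a genetic model, were compared after 1 h at 37 °C and without heat, and the pathways and gene families outside the heat shock proteins are described here. The members were chosen by column and group: all libraries of the heat and control groups of batch 1, which are 6 of the 18 Arabidopsis libraries, with all 27655 genes of the table, of which 21642 had enough counts to be tested. The heated group was Col-0, the wild-type accession, moved to 37 °C for 1 h in the light, and its control was Col-0 kept at 22 °C, with 3 libraries each. Seedlings of all groups were 7 days old and had been grown on diluted Murashige and Skoog agar with sucrose under continuous light, and RNA came from whole seedlings, so leaf, stem and root cells are mixed in every library. Further groups of the same table were used beside these: 3 Col-0 control libraries of batch 2, and, for a test of the difference between lines, 3 heat and 3 control libraries of batch 1 from a line labelled eTK, whose label names HSFA1A, HSFA1B and HSFA1D as knocked out. Heat was measured in batch 1 only, so a comparison of heat with the batch-2 controls cannot tell heat and batch apart.

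A plant cell that is heated quickly meets unfolding proteins, leaky membranes and a changed balance of photosynthesis and respiration. Heat shock factors, with HSFA1 proteins as the first to act, bind a repeated nGAAn element in promoters and switch on chaperone genes within minutes. In parallel, translation of most messages slows, mRNAs enter granules or are degraded, and growth programmes such as cell wall extension are turned down. The chaperones themselves are set aside below, and 60 lists of other genes, from proteasome subunits to expansins, are described by how many of their members changed.

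The heat libraries held 72670045, 58370609 and 59011969 counts and the control libraries 89224416, 110875442 and 63270189. Genes of heat shock proteins, heat shock factors and co-chaperones, of which 316 were tested, took 21.3% to 23.1% of all counts in heat, against 1.74% to 1.8% in control. The composition of the libraries therefore differed, and the scaling factors (TMM, a trimmed mean that scales libraries on the bulk of genes) were 0.774 to 0.800 in heat and 1.26 to 1.29 in control. A gene was called at an adjusted p below 0.05 in edgeR's quasi-likelihood test with Benjamini-Hochberg adjustment over all tested genes, and "rose" and "fell" are used only of called genes. In heat 6252 genes rose (28.9% of those tested) and 6603 fell (30.5%). Both shares are the background for the counts of every list below, and a list near them gives no result of its own. Counts against the batch-2 controls come from a separate fit with its own background. In that fit 6198 of 21861 tested genes rose and 6325 fell, 1765 and 3529 of them by at least 2-fold. At least 2-fold changes were called for 2006 genes that rose (9.27%) and 3241 that fell (15%), and at least 4-fold changes for 874 (4.04%) and 863 (3.99%). Among all 21642 tested genes 6889 had every heat library above every control library and 7475 had every heat library below. Scaled by library size alone, the median change of all genes was lower by 0.70 on the log2 scale, and 1712 genes rose and 14268 fell. For each list the counts under library size alone therefore follow in brackets, rises before falls. Where a list's median is called above or below that of all genes, the difference hardly depends on the scaling, because scaling shifts all genes by nearly the same step. That stability is therefore no support for a rise or fall of a list, and the counts of rises and falls do depend on the scaling. The labels do not state whether the 3 libraries of a group are separate cultures, and p-values then cover the spread among these libraries alone, which may be technical. Of 141 named nuclear genes 31 overlap another annotated gene, and reads in such stretches cannot be assigned without the strand setting, which was not given. Levels are in CPM, counts scaled to a common library size, with TMM factors, in the order of replicates 1, 2 and 3, and log2 changes are heat over control with their SE. Named genes, in lists and outside them, were picked for large changes and for groups that do not overlap. Where a named gene is said to have groups apart, this follows from the choice and is no result.

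**Figure D1:**
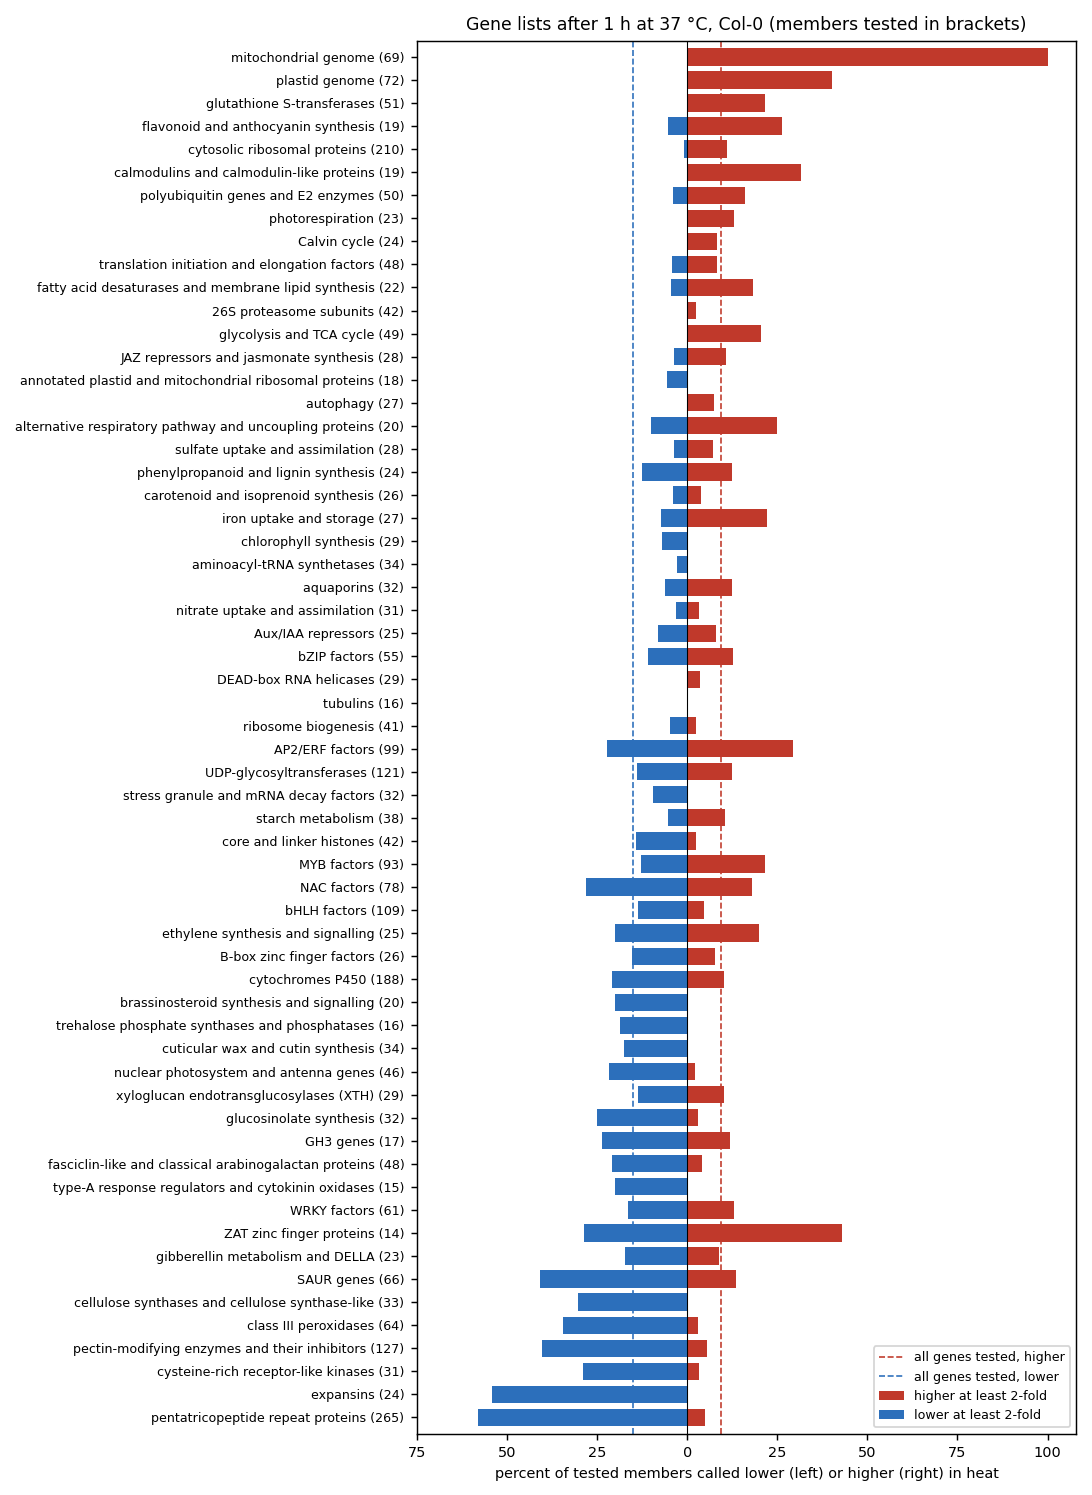
Share of tested members of 60 gene lists that were called at least 2-fold lower (to the left) and at least 2-fold higher (to the right) in Col-0 in heat relative to control, in percent, sorted by median log2 change with TMM scaling. Dashed lines mark the shares over all tested genes, 15% lower and 9.27% higher; mitochondrial genome transcripts and glutathione S-transferases stand at the high end, pentatricopeptide repeat proteins and expansins at the low end.

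Transcripts of the mitochondrial genome were the group with the largest rise among the lists. All 69 tested members rose, each by at least 2-fold (69 and 0), where 28.9% of all tested genes rose. Their median log2 change, not taken relative to all genes, was 5.84, and 5.66 when members with almost no control counts were set to 3 counts over the group. Of these members 12 had at most 3 counts over the whole control group, so they passed the count filter only through the heat libraries. The filter thus favours rises in this list. Over all 122 mitochondrial identifiers of the table, 98 had a count and 81 had every heat library above every control library. The same held for 6889 of all 21642 tested genes. Their summed level was 797, 1165 and 928 CPM in heat, against 34.4, 38.6 and 36.1 CPM in control, with no overlap. ATMG00690 was at 107, 185 and 140.0 CPM in heat, against 0.294, 0.310 and 0.244 CPM in control, and rose by 8.96 ± 0.27 (adjusted p = 1.28e-08). ATMG00040 was at 16.5, 27.9 and 17.3 CPM in heat, against 0.0535, 0.0564 and 0.0489 CPM in control. In both transcripts heat library 2 was the highest of the heat libraries, and the 2 groups lay far apart. Plastid transcripts moved the same way by less: 41 of 72 tested members rose and none fell (16 and 7), with a median log2 change of 0.87. None of the plastid members had an unadjusted p under 0.05 on the lower side, and DESeq2 called none lower. Their summed level was 399, 491 and 534 CPM in heat, against 229, 225 and 230.5 CPM in control. ATCG00070 was at 9.58, 9.79 and 12.2 CPM in heat, against 1.15, 1.42 and 1.45 CPM in control, and rose by 2.97 ± 0.17. ATCG00120 rose by 2.35 ± 0.12. Against the batch-2 controls 69 mitochondrial and 23 plastid members rose. The labels do not say how messenger RNA was selected, and organelle transcripts are captured to different degrees by different selections, so these levels are set beside each other only between the libraries. In whole seedlings fewer cells of a type and less RNA per cell cannot be told apart, here and in every list below.

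Most lists of genes that make and remove proteins lay above the median of all genes in heat by a small step. For ribosome biogenesis and aminoacyl-tRNA synthetases the medians relative to all genes were 0.056 and 0.11. They ran from −0.11 to 0.13 and from −0.045 to 0.20 when a library was left out, so neither list had a clear side. Of 210 tested genes for proteins of the cytosolic ribosome 152 rose and 4 fell (16 and 41), and their median was 0.66 above that of all genes. Proteasome subunits, which form the protease that degrades ubiquitin-tagged proteins, rose in 29 of 42 cases and none fell (1 and 16), with a median 0.51 above that of all genes. On the lower side 1 subunit had an unadjusted p under 0.05 in edgeR, and DESeq2 called none. Polyubiquitin genes and E2 enzymes, which prepare and pass on ubiquitin, rose in 34 and fell in 5 of 50 cases (7 and 24). Translation initiation and elongation factors rose in 29 and fell in 6 of 48 cases (4 and 18), and autophagy genes rose in 14 and fell in 4 of 27 cases (2 and 11). Annotated plastid and mitochondrial ribosomal proteins rose in 9 and fell in 1 of 18 cases (0 and 8). Ribosome biogenesis genes rose in 11 and fell in 7 of 41 cases (1 and 31), and aminoacyl-tRNA synthetases in 5 and 8 of 34 cases (0 and 27), shares at or below those of all tested genes. Without heat library 1 the falls were 14 in ribosome biogenesis and 13 among the synthetases, without heat library 2 and without control library 2 the synthetases had 4 falls, without control libraries 1 or 3 they had 5, and without heat library 3 they had 8 rises. Without heat library 2 or without control library 3, 3 translation factors fell. The 4 falls among cytosolic ribosomal proteins were 9 without heat library 1 and 2 without control library 1, and the 5 falls of the ubiquitin list were 2 without control library 2. Against the batch-2 controls ribosome biogenesis genes rose in 18 cases and the synthetases in 14.

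The largest single change in this machinery was that of AT5G12110 (chr5:3914468-3916896, TAIR10.1), annotated as elongation factor 1-beta 1, a subunit of the complex that recharges elongation factor 1 with GTP. It was at 1451, 1679 and 1833 CPM in heat (1654 ± 192, SD, n = 3), against 29.1, 29.7 and 33.0 CPM in control (30.6 ± 2.09, n = 3). It rose by 5.76 ± 0.16 on the log2 scale (adjusted p = 7.07e-09), with every heat library far above every control library. It shares 1221 bases with AT5G12120 on the opposite strand, which rose by 3.19, and the strand setting of the counting was not given, so reads of the pair cannot be told apart. AT5G54940, annotated as an initiation factor of the SUI1 family, which takes part in start codon selection, was at 1752, 2452 and 2840.3 CPM in heat, against 142, 134 and 117 CPM in control, and rose by 4.16 ± 0.20. EIF4G, the scaffold of the cap-binding complex, went the other way, with 60.7, 53.5 and 48.3 CPM in heat, against 119, 132 and 113 CPM in control (−1.16 ± 0.12, adjusted p = 3.79e-05). The E2 enzymes UBC11 and UBC12, neighbours 224 bases apart, rose by 3.41 ± 0.13 and 5.49 ± 0.21. UBC11 was at 166, 211 and 212 CPM in heat, against 17.5, 18.1 and 19.6 CPM in control. UBC12 was at 8.71, 12.5 and 11.1 CPM in heat, against 0.232, 0.254 and 0.220 CPM in control. In both genes the groups lay apart by several fold. The beta subunit PBC2 of the proteasome core was the only subunit past 2-fold, with 64.1, 70.9 and 60.5 CPM in heat, against 31.8, 29.2 and 35.2 CPM in control (1.02 ± 0.11). Without heat library 2 or control library 2 no subunit passed 2-fold. The autophagy genes ATG8H, for a protein of the autophagosome membrane, and ATI1, for a protein that binds ATG8, rose by 1.26 ± 0.19 and 1.11 ± 0.14. In ribosome biogenesis NAP57, the homologue of the rRNA pseudouridine synthase dyskerin, fell by 1.16 on the log2 scale, to 53.7, 35.9 and 29.1 CPM in heat, against 82.3, 87.3 and 95.1 CPM in control. It was no longer called against the batch-2 controls (−0.50). AT5G25080, of the Sas10/Utp3/C1D family, rose by 1.2 ± 0.10 and overlaps other genes on the opposite strand by 349 and 41 bases. Among the synthetases OVA2 fell by 1.00 ± 0.14.

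The ribosomal protein genes moved by small steps. In 145 of 210 every heat library lay above every control library, against 6889 of all 21642 tested genes. At least 2-fold rises were called for 23, which is 11.0%, against 9.27% of all tested genes. That number was 11 without heat library 2, 39 without heat library 3 and 37 without control library 1. It was 13 against the batch-2 controls, where 147 rose at any size. The largest rises were those of AT5G28060, for a ribosomal protein of the S24e family, and AT4G14320, for a zinc-binding ribosomal protein. AT5G28060 was at 426, 562 and 406 CPM in heat, against 179.8, 162 and 155 CPM in control, a rise of 1.49 ± 0.15 (adjusted p = 3.41e-05). AT4G14320 was at 208, 291 and 204 CPM in heat, against 100.3, 85.7 and 78.5 CPM in control, a rise of 1.41 ± 0.16. In both, heat library 2 was the highest, and the lowest heat library was above the highest control library. Most of these proteins are encoded by several similar genes, so reads may have been split among copies. Promoters of plant ribosomal protein genes are known for 2 short elements, the telo-box and site II, and the 250 bases before the annotated starts of both genes are shown because the elements were counted over the family. Capitals mark AAACCCTA (telo-box) and TGGGCC (site II) on either strand, read 5′ to 3′ on the strand of the gene from the TAIR10.1 genome of RefSeq.
AT5G28060 (chr5:10070900-10071149, minus strand): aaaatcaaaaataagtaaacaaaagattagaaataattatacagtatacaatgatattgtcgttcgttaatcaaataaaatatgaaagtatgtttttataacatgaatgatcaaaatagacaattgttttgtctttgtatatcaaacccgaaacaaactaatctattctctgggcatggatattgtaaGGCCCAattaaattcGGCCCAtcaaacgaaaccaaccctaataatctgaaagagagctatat
AT4G14320 (chr4:8243924-8244173, minus strand): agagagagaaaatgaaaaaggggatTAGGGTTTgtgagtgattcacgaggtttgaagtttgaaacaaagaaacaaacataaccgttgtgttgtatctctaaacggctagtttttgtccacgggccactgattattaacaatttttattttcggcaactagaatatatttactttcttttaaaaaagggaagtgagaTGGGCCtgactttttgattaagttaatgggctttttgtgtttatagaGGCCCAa
The first holds 2 site II matches and no telo-box, and the second holds 2 site II matches and 1 telo-box. In a window of 250 bases before to 50 after the start, 50.5% of the 210 ribosomal protein genes held a telo-box and 66.7% a site II match, against 5.91% and 17.4% of 21184 tested genes outside the heat shock set.

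Pentatricopeptide repeat (PPR) proteins bind organelle RNAs and are needed for their editing, splicing and stability. Of 265 tested PPR genes 200 fell and 21 rose (12 and 240), and their median lay 1.14 below that of all genes. At least 2-fold falls were called for 154, which is 58.1% of them, where the share of all tested genes was 15%. In 208 of the 265 every heat library lay below every control library, against 7475 of all 21642 tested genes. AT1G09900 was at 4.84, 3.81 and 2.49 CPM in heat, against 18.5, 21.8 and 22.8 CPM in control, and fell by 2.49 ± 0.22 on the log2 scale (adjusted p = 1.41e-05). EMB175, a PPR gene needed for embryo development, was at 2.56, 2.4 and 2.4 CPM in heat, against 11.4, 10.7 and 12.3 CPM in control, and fell by 2.22 ± 0.13. The highest heat library of each was far below its lowest control library. The largest rise among PPR genes that met the rule for named genes was that of AT1G33350 (chr1:12089249-12091743), with 69.9, 103 and 72.3 CPM in heat (81.6 ± 18.2, SD, n = 3), against 2.46, 2.80 and 3.13 CPM in control (2.80 ± 0.334). It rose by 4.87 ± 0.19 (adjusted p = 5.62e-08) and overlaps AT1G33355 on the opposite strand by 28 bases, which rose by 6.57. Against the batch-2 controls 139 PPR genes fell and 24 rose, 92 and 17 by at least 2-fold. Other families of RNA metabolism moved less. DEAD-box helicases rose in 31.0% and fell in 13.8% of cases, and genes of stress granules and mRNA decay in 21.9% and 31.25%. All tested genes did so in 28.9% and 30.5%. DEAD-box helicases rose in 9 and fell in 4 of 29 cases (1 and 23), the largest rise being that of AT5G65900 at 1.59 ± 0.09. Genes of stress granules and mRNA decay rose in 7 and fell in 10 of 32 cases (0 and 26). DCP5, a part of the decapping machinery, was at 71.3, 65.7 and 65.8 CPM in heat, against 162, 162 and 161 CPM in control (−1.26 ± 0.095). OZF2, a tandem zinc finger protein, fell by 1.43 ± 0.17 on the log2 scale but was not called against the batch-2 controls (−0.16). Without heat library 1, 9 helicases fell, and against the batch-2 controls 16 rose. Core and linker histones rose in 8 and fell in 15 of 42 cases (1 and 31), with HTB1 at 9.42, 5.27 and 3.23 CPM in heat, against 29.2, 28.4 and 25.7 CPM in control (−2.21 ± 0.31). AT2G28720, another histone gene, fell by 1.8 ± 0.098, and by 0.74 against the batch-2 controls. Tubulins rose in 3 of 16 cases and none fell (0 and 13), none having an unadjusted p under 0.05 on the lower side and DESeq2 calling 1 lower. Leaving out any control library left 1 tubulin that rose, and against the batch-2 controls 12 rose.

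Most PPR genes have no introns, and the gene structure of all changed genes was therefore read from the TAIR10.1 annotation. Genes with 1 exon made up 47.5% of the 863 genes that fell at least 4-fold and 45.5% of the 805 that remained when PPR genes were left out, against 16.7% of all 21501 tested genes with annotated exons. They made up 27.7% of the 801 annotated genes that rose at least 4-fold. The median transcript length was 1337 bases among those rises and 1718 bases among the falls, against 1634 bases in all tested genes. By exon number, 33.1% of 3588 genes with 1 exon fell at least 2-fold, 16.9% of 7463 with 2 to 4 exons and 7.57% of 10450 with 5 or more. The shares that rose at least 2-fold were 11.3%, 10.7% and 6.74%. By transcript length, genes with up to 1154 bases rose at least 2-fold in 14.6% and fell in 11.2% of cases, and genes above 2202 bases in 4.58% and 20.0%. PPR genes with 1 exon fell at least 2-fold in 70% of 170 cases, and PPR genes with 2 or more exons in 36.8% of 95 cases. Without the PPR genes, 31.3% of 3418 genes with 1 exon fell at least 2-fold. These shares are descriptions of the annotation and were not tested.

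**Figure D2:**
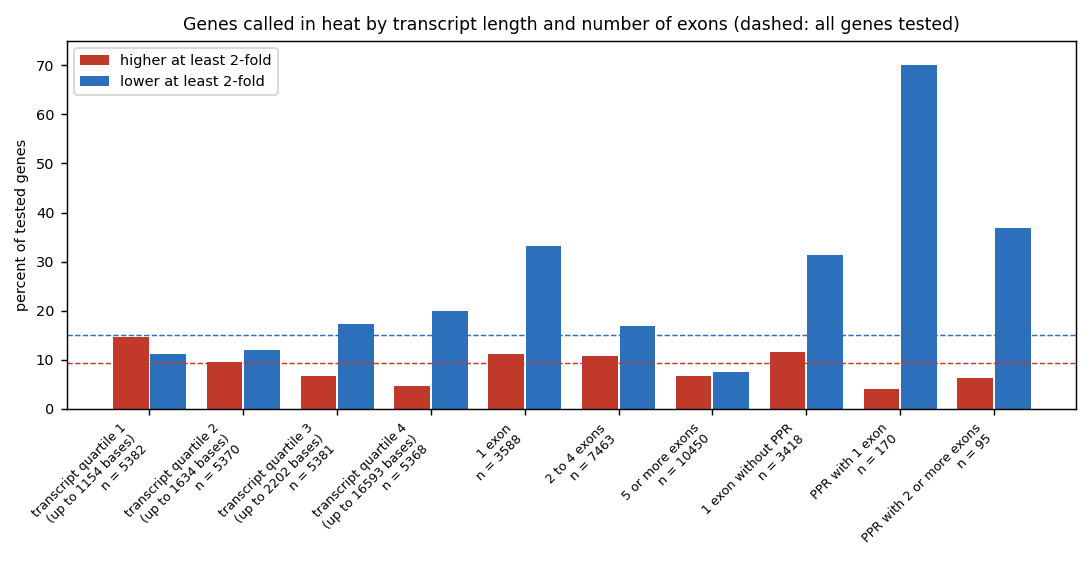
Share of tested genes called at least 2-fold higher and at least 2-fold lower in Col-0 in heat relative to control, in percent, by quartile of annotated transcript length, by exon number, and for PPR genes with 1 exon and with 2 or more. The share that fell is 33.1% for genes with 1 exon and 7.57% for genes with 5 or more exons, and 70% for PPR genes with 1 exon.

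Genes of central carbon metabolism were higher in heat relative to the median of all genes. Of 49 tested genes of glycolysis and the TCA cycle 31 rose and 3 fell (9 and 22), and their median was 0.46 above that of all genes. Leaving out any control library left 1 fall. PFK3 (chr4:13300778-13304440), for a phosphofructokinase, the enzyme that commits sugar phosphates to glycolysis, was at 126, 160.0 and 179 CPM in heat (155 ± 26.4, SD, n = 3), against 4.23, 5.09 and 3.74 CPM in control (4.36 ± 0.684). It rose by 5.15 ± 0.18 (adjusted p = 3.67e-08). FBA6, for a fructose-bisphosphate aldolase, was at 2967, 3252 and 3416 CPM in heat, against 142, 145 and 145 CPM in control, and rose by 4.48 ± 0.13. In both genes the lowest heat library was far above the highest control library. Of 38 starch genes 10 rose and 9 fell (3 and 25), shares of 26.3% and 23.7% that do not exceed those of all tested genes, 28.9% and 30.5%. BAM1, a plastid β-amylase that releases maltose from starch, was at 484, 457 and 489.6 CPM in heat, against 28.1, 30.0 and 27.1 CPM in control (4.07 ± 0.12). Starch synthase SS3 fell by 1.14 ± 0.11. The other β-amylase CT-BMY rose by 1.32 ± 0.16 against its own batch and was at −0.31 against the batch-2 controls. Falls of starch genes numbered 17 without heat library 1, 5 without heat library 2 and 4 without control library 1 or 2, and 20 rose against the batch-2 controls. Trehalose phosphate synthases and phosphatases rose in 2 and fell in 6 of 16 cases (0 and 14), with TPPG at −1.09 ± 0.25. Alternative respiration genes, uncoupling proteins and their regulators rose in 8 and fell in 5 of 20 cases (4 and 8), the falls numbering 3 without control library 1 or 3. BCS1, an ATPase of the mitochondrial membrane, was at 26.0, 17.8 and 17.5 CPM in heat, against 2.5, 2.82 and 2.49 CPM in control (2.97 ± 0.18). NAC13, a factor of mitochondrial retrograde signalling, rose by 2.66 ± 0.13, and UCP5 fell by 1.22 ± 0.14.

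Nuclear genes of photosynthesis split between the light reactions and carbon fixation when heat was set against its own batch. Genes of the photosystems and their antennae fell in 23 and rose in 7 of 46 cases (1 rise and 38 falls by library size). Calvin cycle genes rose in 16 and fell in 2 of 24 (2 and 10), and photorespiration genes in 15 and 1 of 23 (4 and 8). Without heat library 1 the falls were 4 in each of these 2 lists, and leaving out any control library left 1 Calvin cycle gene that fell. CAB2 and LHCB2.2 encode antenna proteins that bind chlorophyll. LHCB2.2 was at 57.0, 31.5 and 32.8 CPM in heat, against 523, 436 and 406 CPM in control, and fell by 3.49 ± 0.24. CAB2 fell by 3.76 ± 0.24 (adjusted p = 2.38e-06), and both may share reads with near-identical copies. LHCB4.3, a minor antenna protein, rose by 1.40 ± 0.14. CP12-2, a scaffold that binds Calvin cycle enzymes, was at 391, 445 and 427 CPM in heat, against 164, 144 and 131 CPM in control (1.52 ± 0.12), and the aldolase FBA1 rose by 1.39 ± 0.17. Among photorespiration genes HPR, the peroxisomal hydroxypyruvate reductase, was at 808, 755 and 777 CPM in heat, against 331, 307 and 263 CPM in control (1.38 ± 0.12), and the glycine decarboxylase subunit GDCH rose by 1.15 ± 0.12.

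The batch-2 controls gave another picture of the same lists, since the Col-0 controls of the batches differed. On a scale set over the 9 Col-0 libraries CAB2 was at 107, 67.9 and 61.6 CPM in heat, 1266, 1062.5 and 864 CPM in the batch-1 controls, and 77.2, 87.3 and 94.2 CPM in the batch-2 controls. Its change against batch 2 was −0.084 ± 0.20 and not called (adjusted p = 0.74). LHCB2.2 was at 62.6, 34.6 and 36.0 CPM in heat, 575, 479 and 446 CPM in the batch-1 controls, and 25.7, 24.3 and 27.8 CPM in the batch-2 controls. For both antenna genes the heat libraries thus lay below the batch-1 controls. Those of CAB2 lay near the batch-2 controls, whereas LHCB2.2 rose by 0.82 ± 0.22 against batch 2, with every heat library above every batch-2 control. Over the list, 38 of 46 genes rose against batch 2, and the median relative to all genes was 0.68 in place of −0.29. FBA1 was at 0.069 against batch 2, and LHCB4.3 at −0.17. Calvin cycle genes then rose in 9 and fell in 3 cases, and photorespiration genes in 5 and 5. Where the batches of controls disagree in this way, the direction of a list depends on the batch of its controls. Chlorophyll synthesis genes rose in 9 and fell in 3 of 29 cases (0 and 20), with CH1, which makes chlorophyll b, at −1.41 ± 0.098. Falls numbered 12 without heat library 1, rises 5 without control library 2, and 14 rose against batch 2. Carotenoid and isoprenoid synthesis genes rose in 8 and fell in 2 of 26 cases (1 and 18), and rose in 5 without control library 3 and fell in 5 without heat library 1. Rises made up 31.0% of chlorophyll and 30.8% of carotenoid genes, near the 28.9% of all tested genes. NCED3, the regulated step toward abscisic acid, was at 16.5, 24.7 and 24.8 CPM in heat, against 2.14, 2.02 and 1.83 CPM in control (3.46 ± 0.18). ABA1, the zeaxanthin epoxidase upstream of it, fell by 1.36 ± 0.10, to 33.3, 28.5 and 29.4 CPM in heat, against 82.1, 80.0 and 72.5 CPM in control.

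**Figure D3:**
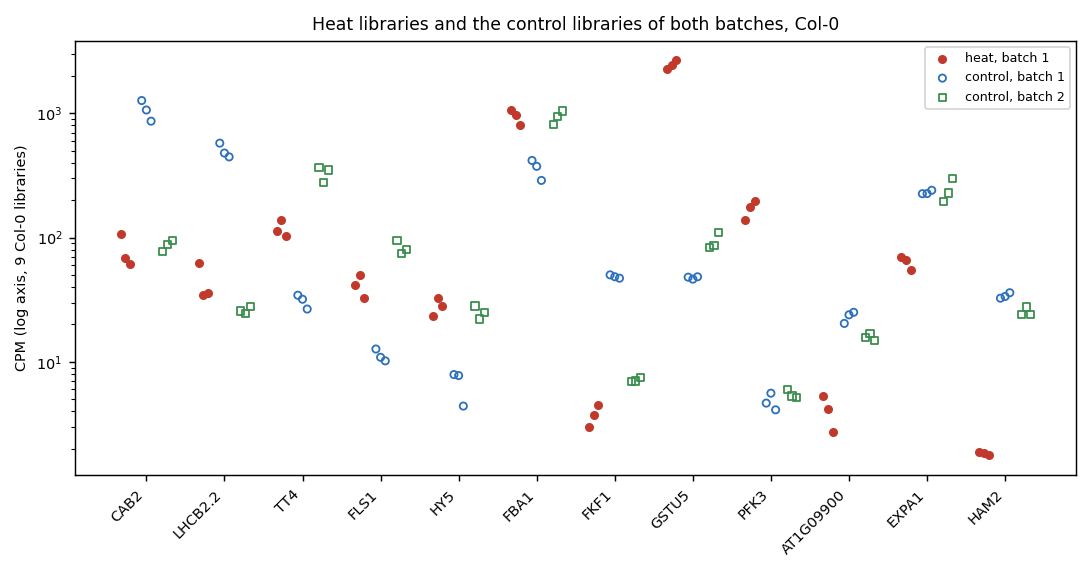
Levels of 12 transcripts in CPM (log axis) in the 3 heat libraries of batch 1, the 3 Col-0 controls of batch 1 and the 3 Col-0 controls of batch 2, each point a library. CAB2, LHCB2.2, TT4, FLS1, HY5 and FBA1 differ between the batches of controls, whereas for PFK3 (139 to 196 CPM in heat, 5.16 to 5.98 CPM in batch-2 controls) and GSTU5 heat lies far above both.

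Glutathione S-transferases, which couple glutathione to reactive compounds, rose in 28 and fell in 2 of 51 cases (9 and 13), with a median 0.74 above that of all genes, and fell in 4 without heat library 3. GSTU5 (chr2:12624403-12625790) was at 2068, 2245 and 2422 CPM in heat (2245 ± 177, SD, n = 3), against 43.7, 42.1 and 44.0 CPM in control (43.3 ± 0.99), a rise of 5.70 ± 0.14 (adjusted p = 4.2e-09). GSTF8 was at 2144, 2172 and 2525 CPM in heat, against 193, 193 and 221 CPM in control, a rise of 3.50 ± 0.14, and overlaps AT2G47720 by 516 bases on the same strand. The groups did not overlap in either gene. Against the batch-2 controls 15 members rose and 13 fell, and GSTU5 rose by 4.77 ± 0.18. Flavonoid and anthocyanin synthesis genes rose in 10 and fell in 4 of 19 cases (4 and 6), the falls numbering 2 without control library 1 and 1 without control library 2. TT4, chalcone synthase, which opens the flavonoid pathway, was at 102, 127 and 93.4 CPM in heat, against 31.2, 29.0 and 24.2 CPM in control (1.93 ± 0.15). FLS1, flavonol synthase, rose by 1.87 ± 0.16. On the scale of the 9 Col-0 libraries TT4 was at 112, 139.6 and 103 CPM in heat, 34.3, 31.9 and 26.6 CPM in batch-1 controls and 367, 279 and 350.2 CPM in batch-2 controls. Heat thus lay between the batches of controls for TT4, and FLS1 did the same. Against batch 2 TT4 was lower by 1.45 ± 0.17 and FLS1 by 0.96 ± 0.17, and over the list 1 gene rose and 17 fell. Phenylpropanoid and lignin genes rose in 9 and fell in 4 of 24 cases (3 and 15), and against batch 2 in 2 and 14. MYB4, a repressor of this pathway, was at 70.0, 93.2 and 98.4 CPM in heat, against 16.1, 15.1 and 17.5 CPM in control (2.43 ± 0.14), and still rose by 1.51 against batch 2. The laccase IRX12 fell by 2.39 ± 0.16. The ligase 4CL3 rose by 1.54 ± 0.14 and was at −0.94 against batch 2.

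Nutrient lists changed less evenly, where 28.9% of all tested genes rose and 30.5% fell. Sulfate uptake and assimilation genes rose in 12 and fell in 4 of 28 cases (2 and 17), and fell in 11 against batch 2. LSU2, a small protein of the response to low sulfur, was at 83.1, 102 and 106 CPM in heat, against 4.30, 4.74 and 5.55 CPM in control (4.32 ± 0.15). SULTR1;2, a transporter that takes up sulfate in roots, was at 12.4, 22.3 and 31.8 CPM in heat, against 51.7, 61.7 and 67.4 CPM in control (−1.45 ± 0.28, adjusted p = 0.00174). Nitrate genes rose in 11 and fell in 5 of 31 cases (1 and 21), with 7 rises without control library 1 or 2 and 6 without control library 3, and 3 falls without heat library 2 or control library 2. The cytosolic glutamine synthetase GSR2 rose by 1.27 ± 0.14, and by an uncalled 0.27 against batch 2. Iron uptake and storage genes rose in 10 and fell in 5 of 27 cases (3 and 14), and in 6 and 14 against batch 2, with 3 falls without control library 2. The ferritin FER4, which stores iron in plastids, rose by 1.28 ± 0.10, and the nicotianamine synthase NAS3 fell by 1.34 ± 0.31 but was not called against batch 2 (−0.58). AT3G13610, an oxygenase, was at 28.2, 53.8 and 81.4 CPM in heat, against 20.4, 22.1 and 17.3 CPM in control (1.45 ± 0.32), was not called by library size alone (0.75), and was at −0.64 against batch 2. Membrane lipid genes rose in 12 and fell in 2 of 22 cases (4 and 10), with 1 fall without heat library 2 or any control library. DGD2, which makes the plastid lipid digalactosyldiacylglycerol, was at 90.4, 109.8 and 101 CPM in heat, against 13.4, 13.1 and 15.6 CPM in control (2.84 ± 0.12). AT4G13550, annotated as a putative triglyceride lipase, was at 69.7, 80.8 and 95.1 CPM in heat, against 19.8, 21.7 and 19.4 CPM in control (2.01 ± 0.13). The lowest heat library was above the highest control library in both. The desaturase ADS2 fell by 1.11 ± 0.094, which was not called against batch 2 (−0.28). Wax and cutin genes fell in 15 and rose in 4 of 34 cases (0 rises and 29 falls by library size), and rose in 7 without heat library 1. KCS5, which lengthens fatty acids for wax, was at 8.21, 10.9 and 13.8 CPM in heat, against 50.0, 48.5 and 50.8 CPM in control (−2.18 ± 0.17), and KCS1 fell by 1.46 ± 0.16. Aquaporins, the water channels of membranes, rose in 8 and fell in 6 of 32 cases (3 and 18), and in 13 cases rose without heat library 1. Their shares, 25% and 18.75%, lay below those of all tested genes. RD28 was at 209, 204 and 233 CPM in heat, against 14.4, 13.5 and 10.5 CPM in control (4.06 ± 0.15). Its near-identical neighbour PIP2B rose by 1.35 ± 0.22, and reads may be shared between them. NLM1 fell by 1.2 ± 0.20.

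UDP-glycosyltransferases rose in 34 and fell in 39 of 121 cases (11 and 78), shares of 28.1% and 32.2% that lie near the 28.9% and 30.5% of all tested genes. Cytochromes P450 in 31 and 62 of 188 (16 and 136), and glucosinolate synthesis genes in 8 and 15 of 32 (1 and 24). Without heat library 1, 48 cytochromes P450 rose, and without control library 3, 4 glucosinolate genes did. UGT73C1 was at 19.2, 13.6 and 16.2 CPM in heat, against 1.84, 2.16 and 1.59 CPM in control (3.13 ± 0.18), while AT3G15940 and AT1G19710 fell by 1.35 ± 0.10 and 1.31 ± 0.11. CYP79B2, which opens the path from tryptophan to indole glucosinolates, was at 19.5, 19.2 and 22.4 CPM in heat, against 68.3, 70.6 and 71.3 CPM in control (−1.78 ± 0.096). The regulators MYB34 and MYB28 also fell, and were named as the largest falls of the glucosinolate list under the naming rule. Other regulators in that list are not given here. MYB34, a regulator of indole glucosinolates, was at 3.77, 5.74 and 4.19 CPM in heat, against 28.3, 24.3 and 23.0 CPM in control (−2.47 ± 0.17). MYB28, a regulator of aliphatic glucosinolates, was at 14.5, 12.3 and 11.7 CPM in heat, against 46.6, 47.3 and 47.4 CPM in control (−1.88 ± 0.11). For each of these the highest heat library was below the lowest control library. GGP1 rose by 1.17 ± 0.14, CYP82F1 fell by 1.72 ± 0.24, and CYP707A3, which breaks down abscisic acid, rose by 4.47 ± 0.13.

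**Figure D4:**
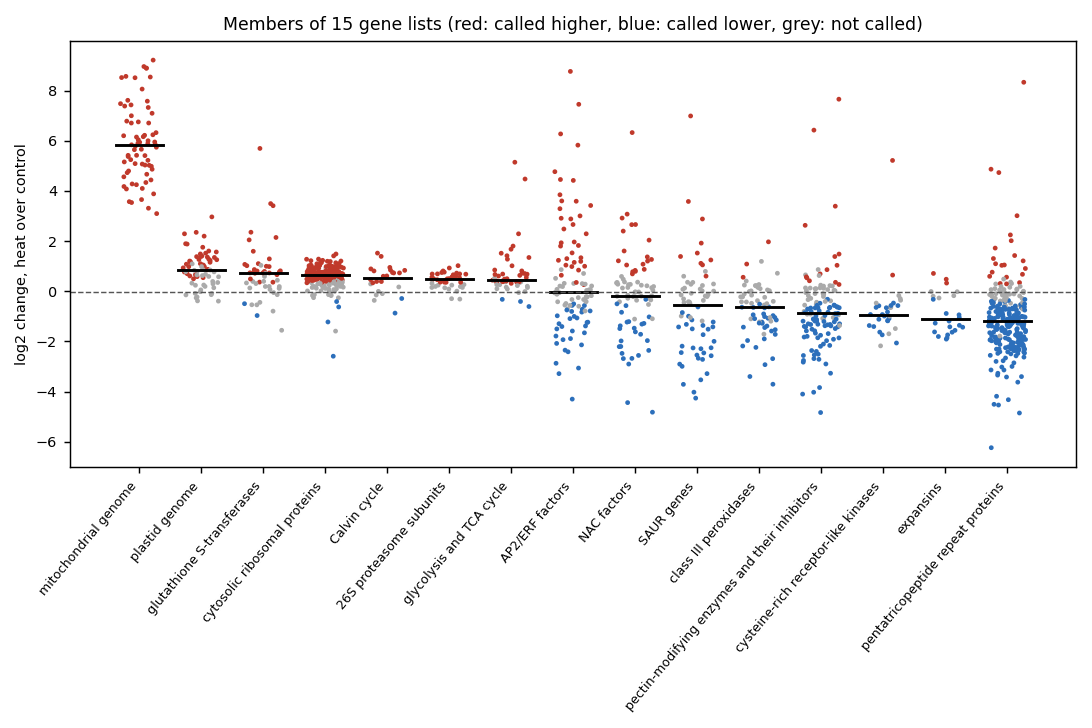
Log2 change in Col-0 in heat relative to control for every tested member of 15 gene lists, with TMM scaling. Points are genes, red where called higher, blue where called lower and grey where not called; black bars are list medians and the dashed line is the median of all genes, with mitochondrial transcripts at a median of 5.84 and PPR genes at −1.17.

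Hormone lists differed in direction, where 28.9% of all tested genes rose and 30.5% fell. Aux/IAA repressors, at 20% and 16%, and GH3 genes, at 29.4% and 29.4%, lay near or below these shares. SAUR genes, small auxin-induced genes of growing tissue, fell in 30 and rose in 10 of 66 cases (5 rises and 40 falls by library size). AT4G38860 was at 1.28, 0.600 and 0.916 CPM in heat, against 19.8, 16.8 and 17.6 CPM in control, and fell by 4.26 ± 0.23 on the log2 scale (adjusted p = 6.82e-07). AT2G21210 was at 4.23, 2.87 and 1.53 CPM in heat, against 33.4, 33.4 and 33.8 CPM in control (−3.53 ± 0.28), and shares 176 bases with AT2G21200, another SAUR gene, which fell by 2.72. AT4G12410 moved against them, with 21.0, 18.8 and 18.6 CPM in heat, against 0.107, 0.127 and 0.244 CPM in control (6.99 ± 0.24). Aux/IAA repressors rose in 5 and fell in 4 of 25 cases (1 and 14), with AXR3 at 1.1 ± 0.15 and an uncalled 0.34 against batch 2; without heat library 1, 8 rose, and without control library 3, 2 fell. GH3 enzymes, which conjugate hormones to amino acids, rose in 5 and fell in 5 of 17 cases (1 and 10), with BRU6 at 2.31 ± 0.19 and DFL2 at −1.38 ± 0.15, and 3 falls without control library 1 or 2. Type-A response regulators and cytokinin oxidases, which damp cytokinin signals, fell in 6 of 15 cases and none rose (0 and 15), none having an unadjusted p under 0.05 on the higher side and DESeq2 calling none higher; 11 fell against batch 2. ARR4 was at 22.9, 23.7 and 21.6 CPM in heat, against 47.5, 44.1 and 50.2 CPM in control (−1.05 ± 0.092).

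Gibberellin genes and the DELLA repressors of growth fell in 11 and rose in 2 of 23 cases (1 rise and 17 falls by library size), and in 7 cases fell without control library 2. The DELLA gene GAI was at 9.49, 8.44 and 8.16 CPM in heat, against 37.5, 38.8 and 38.8 CPM in control, and fell by 2.14 ± 0.098 (adjusted p = 2.15e-07). GA3OX1, which makes active gibberellin, was at 29.8, 25.7 and 30.4 CPM in heat, against 3.25, 3.22 and 2.79 CPM in control, and rose by 3.21 ± 0.12. The groups did not overlap in either gene, and GA2, ent-kaurene synthase, fell by 1.57 ± 0.19. Ethylene genes rose in 9 and fell in 11 of 25 cases (4 and 16), or 36% and 44%, against 28.9% and 30.5% of all tested genes. ACS6 and ACS7 encode synthases of the ethylene precursor. ACS6 was at 74.8, 86.7 and 86.5 CPM in heat, against 4.55, 6.70 and 6.58 CPM in control (3.80 ± 0.16), and ACS7 at 168, 159.6 and 165 CPM in heat, against 7.85, 11.7 and 16.8 CPM in control (3.76 ± 0.25). The receptor gene EIN4 fell by 1.5 ± 0.15. Brassinosteroid genes rose in 4 and fell in 10 of 20 cases (0 and 16), with 2 rises without control library 1 and 1 without control library 2. The receptor BRI1 was at −1.06 ± 0.11 and the oxidase BR6OX2 at −1.04 ± 0.14. JAZ repressors and jasmonate synthesis genes rose in 15 and fell in 5 of 28 cases (4 and 14), and in 6 cases rose against batch 2. TIFY7, a JAZ repressor, rose by 1.69 ± 0.13, and by an uncalled 0.35 against batch 2.

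Transcription factor families had members at both ends of the scale. Shares that rose and fell were 24.4% and 33.3% for NAC, 35.4% and 31.3% for AP2/ERF, and 29.0% and 22.6% for MYB factors. Those of all tested genes were 28.9% and 30.5%, so these counts alone set the families little apart. NAC factors rose in 19 and fell in 26 of 78 cases (10 and 45). ATAF1 (chr1:267993-269819), a stress-induced NAC factor, was at 1031, 1086 and 1123 CPM in heat, against 13.6, 13.2 and 13.5 CPM in control, and rose by 6.33 ± 0.13 (adjusted p = 2.37e-09), with an overlap of 28 bases on the opposite strand with AT1G01725, which rose by 2.32. NAC1, known from lateral root formation, was at 3.41, 3.81 and 4.47 CPM in heat, against 22.5, 23.2 and 23.0 CPM in control (−2.56 ± 0.13), and NAC083 fell by 1.62 ± 0.12. AP2/ERF factors rose in 35 and fell in 31 of 99 cases (28 and 54), led by DREB2A, an activator of heat and drought genes, with AT4G18450 at 7.46 ± 0.38 and CRF2 at −1.93 ± 0.23. MYB factors rose in 27 and fell in 21 of 93 cases (13 and 50), the falls numbering 12 without control library 2, 13 without control library 3 and 35 against batch 2. MYB77, a factor of auxin-responsive root growth, was at 86.1, 84.3 and 87.5 CPM in heat, against 5.90, 6.50 and 7.09 CPM in control (3.73 ± 0.10). MYBR1 was at 292, 303 and 328 CPM in heat, against 42.6, 39.2 and 41.9 CPM in control (2.90 ± 0.11), and overlaps CYP81G1 on the opposite strand by 791 bases, which rose by 3.67. The groups were apart in each of the NAC and MYB genes given, which the rule for named genes required. WRKY factors, many of them regulators of defence, fell in 22 and rose in 13 of 61 cases (4 rises and 37 falls by library size), and in 36 and 5 against batch 2. WRKY33 was at 63.4, 71.8 and 88.1 CPM in heat, against 14.3, 18.4 and 19.9 CPM in control (2.09 ± 0.16), and rose by 0.81 against batch 2. WRKY6 was at 2.77, 3.77 and 5.06 CPM in heat, against 17.5, 19.3 and 19.5 CPM in control (−2.28 ± 0.20), and WRKY17 fell by 1.5 ± 0.13.

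bZIP factors rose in 22 and fell in 16 of 55 cases (5 and 38). Shares that rose and fell were 40% and 29.1% for bZIP and 20.2% and 33.0% for bHLH factors. Those of all tested genes were 28.9% and 30.5%. BZIP28, a membrane-anchored activator of the unfolded protein response, was at 153, 156 and 169 CPM in heat, against 21.6, 22.9 and 24.6 CPM in control (2.79 ± 0.10), and bZIP2 fell by 1.7 ± 0.11. HY5, a factor of light responses, rose by 2.06 ± 0.22 against the controls of its own batch. On the scale of 9 libraries it was at 23.4, 32.7 and 27.9 CPM in heat, 7.90, 7.76 and 4.41 CPM in batch-1 controls and 28.1, 22.1 and 25.1 CPM in batch-2 controls, and its change against batch 2 was 0.20 ± 0.15 (adjusted p = 0.26). bHLH factors fell in 36 and rose in 22 of 109 cases (6 rises and 74 falls by library size), and rose in 13 against batch 2. AT5G09460 (bHLH143) was at 9.07, 8.53 and 9.03 CPM in heat, against 67.0, 64.3 and 66.1 CPM in control (−2.89 ± 0.089). AT1G29950 fell by 2.37 ± 0.10 and AT4G29930 rose by 3.58 ± 0.28. ZAT zinc finger proteins, repressors of stress genes, rose in 6 and fell in 4 of 14 cases (6 and 7). ZAT7 was at 40.7, 33.5 and 35.6 CPM in heat, against 0.321, 0.494 and 0.293 CPM in control (6.58 ± 0.20), and AT3G46080 rose by 7.35 ± 0.32 from control levels of 0.0892, 0.0846 and 0.0244 CPM. The fold of AT3G46080 rests on few control reads, and it rose by 4.71 against batch 2. B-box factors rose in 6 and fell in 11 of 26 cases (1 and 19), with BBX8 at 1.17 ± 0.10.

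**Figure D5:**
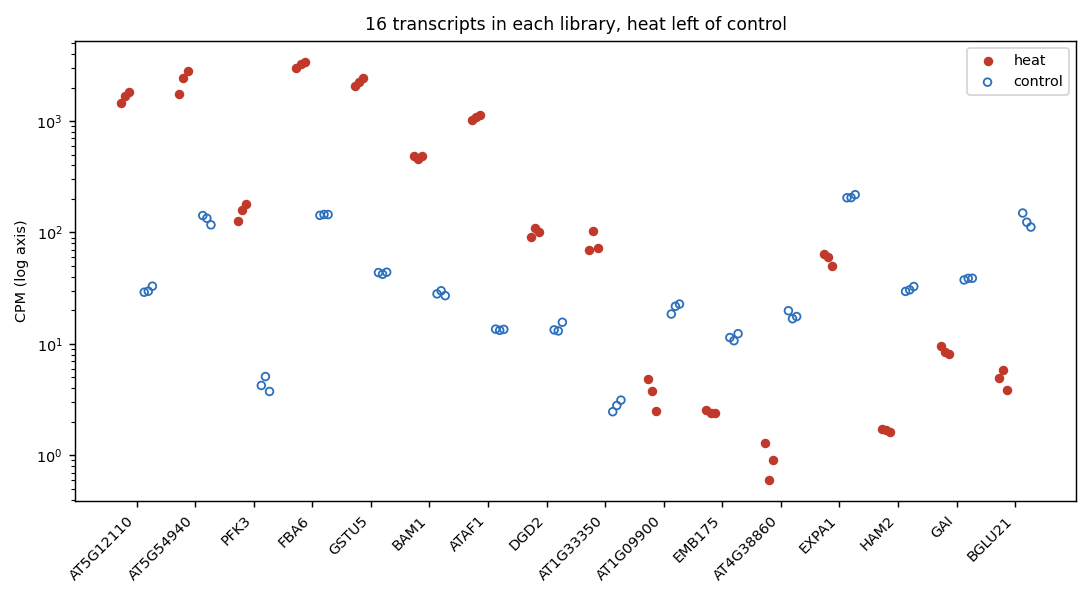
Levels of 16 transcripts in CPM (log axis) in the 3 heat libraries (filled, left) and the 3 control libraries (open, right) of Col-0 in batch 1, each point a library. AT5G12110, PFK3, GSTU5 and ATAF1 lie far higher in heat, and AT4G38860, EXPA1, HAM2, GAI and BGLU21 lie lower. All 16 were picked among genes whose groups do not overlap.

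Most cell wall lists had more falls than rises, where 28.9% of all tested genes rose and 30.5% fell. Falls made up 66.7% of expansins and 41.4% of XTH enzymes, and XTH rises, at 31.0%, lay near the share of all genes. Expansins, which loosen the wall of growing cells, fell in 16 and rose in 3 of 24 cases (0 rises and 21 falls by library size), with a median 1.09 below that of all genes, and 1 rise without control library 2 or 3. EXPA1 was at 63.6, 60.3 and 49.9 CPM in heat, against 205, 206 and 219 CPM in control, and fell by 1.86 ± 0.12 (adjusted p = 2.33e-06). EXPA8 was at 7.08, 8.23 and 13.3 CPM in heat, against 33.1, 32.4 and 29.6 CPM in control (−1.74 ± 0.21). Every heat library was below every control library in both. Pectin-modifying enzymes and their inhibitors fell in 75 and rose in 14 of 127 cases (5 rises and 102 falls by library size), with a median 0.83 below that of all genes. PME2, a pectin methylesterase, was at 1.32, 1.46 and 2.01 CPM in heat, against 12.7, 12.4 and 8.64 CPM in control (−2.82 ± 0.22), ATPMEPCRB fell by 2.53 ± 0.33, and AT4G33440, annotated as pectin lyase-like, rose by 2.63 ± 0.099. Cellulose synthases and related glycan synthases fell in 20 and rose in 4 of 33 cases (0 rises and 30 falls by library size). CSLC04, which makes the xyloglucan backbone, was at 19.7, 17.6 and 23.6 CPM in heat, against 62.9, 60.5 and 57.2 CPM in control (−1.57 ± 0.12), and CSLD5 fell by 1.16 ± 0.21. Arabinogalactan proteins fell in 23 and rose in 10 of 48 cases (2 rises and 34 falls by library size), and rose in 6 without control library 2. FLA8 was at 35.3, 31.7 and 49.2 CPM in heat, against 146, 143 and 154 CPM in control (−1.93 ± 0.16), AGP31 fell by 1.36 ± 0.17, and AGP1 went the other way with 237, 248 and 302 CPM in heat, against 18.2, 16.2 and 24.8 CPM in control (3.73 ± 0.19). XTH enzymes, which cut and rejoin xyloglucan, fell in 12 and rose in 9 of 29 cases (3 rises and 16 falls by library size), and rose in 4 against batch 2, with EXGT-A3 at −1.36 ± 0.17. TCH4, the touch-induced XTH gene, went the other way, with 445, 444 and 665 CPM in heat, against 10.9, 10.6 and 10.8 CPM in control (5.59 ± 0.20).

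Class III peroxidases, which act on wall polymers, fell in 30 and rose in 3 of 64 cases (2 rises and 52 falls by library size), and rose in 9 without heat library 1. AT2G18980 was at 4.69, 5.23 and 6.20 CPM in heat, against 28.7, 25.9 and 21.2 CPM in control (−2.24 ± 0.15), and AT4G33420 rose by 1.09 ± 0.12. AT5G64120 was at 65.0, 70.5 and 179 CPM in heat, against 239, 468 and 718 CPM in control (−2.18 ± 0.50, adjusted p = 0.00589), and was not called without heat library 1 (−1.93). Cysteine-rich receptor-like kinases, receptors linked to defence, fell in 19 and rose in 2 of 31 cases (1 rise and 27 falls by library size), and fell in 27 against batch 2. Falls of at least 2-fold numbered 9, and 5 without heat library 1, 16 without heat library 3 and 14 without control library 1. CRK2 was at 7.18, 8.57 and 13.9 CPM in heat, against 24.0, 26.9 and 27.4 CPM in control (−1.41 ± 0.21). CRK13 fell by 2.06 ± 0.52 (adjusted p = 0.0095), and was not called without heat library 1 (−1.88). In AT5G64120 and CRK13 control library 3 was the highest and control library 1 the lowest of the controls, and the highest heat library stayed below the lowest control library. Calmodulins and calmodulin-like proteins, the calcium sensors of the cell, rose in 12 and fell in 2 of 19 cases (6 and 6), with 1 fall without heat library 3 or any control library. CML37 was at 28.7, 27.5 and 29.6 CPM in heat, against 0, 0.0141 and 0.0978 CPM in control, so that its fitted change of 9.82 rests on very few control counts, and it rose by 5.43 against batch 2. CML23 was at 26.8, 46.2 and 45.2 CPM in heat, against 2.46, 2.2 and 1.98 CPM in control (4.15 ± 0.22).

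Markers of the tissues that a whole seedling holds were read beside the lists. Of 6 root markers 5 fell, and their summed level was 14.1 to 22.9 CPM in heat, against 59.3 to 66.1 CPM in control. Of 5 stomatal lineage markers 3 fell, with sums of 14.05 to 14.4 CPM in heat, against 35.2 to 37.6 CPM in control, and 5 fell without heat library 1. None of the root or stomatal markers rose, since the fitted change of each was below 0. Of 3 green tissue markers CAB3 and LHCB2.1 fell and RBCS1A was not called, with sums of 9169 to 12609 CPM in heat, against 12702 to 14268 CPM in control. Against the batch-2 controls 1 green tissue marker rose and neither fall was called, and the median relative to all genes was −0.088 in place of −1.08. In vasculature SUC2 fell, XCP1 rose and APL was not called, with sums of 74.9 to 82.6 CPM in heat, against 129 to 141 CPM in control. None of the markers of these 4 lists was at 0 in all libraries, and their part in the results was not tested. Seed markers were uneven, with CRA1 at 9.53, 42.1 and 0.0873 CPM in heat, against 0.125, 0.748 and 0.269 CPM in control, so that heat library 3 lay below every control library while libraries 1 and 2 lay above.

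Genes outside all lists and outside the heat shock set were picked by size of change, at 20 CPM or more in the higher group and with no overlap of the groups. AT1G21940, annotated as uncharacterized, was at 364, 352 and 294 CPM in heat, against 0, 0.0282 and 0 CPM in control. AT5G05220, also uncharacterized, was at 27.3, 34.5 and 24.3 CPM in heat and had no count in control, which makes it at least 3207-fold higher in heat if the whole control group is set to 3 counts. AT5G53680, for a protein with an RNA recognition motif, was at 54.2, 105 and 97.8 CPM in heat, against 0, 0.0141 and 0 CPM in control, a ratio of 14040 with a 95% counting interval from 3886 to 115950. The interval treats the 2 control counts as independent, though mates may each have been counted, and leaves out the spread among libraries. These transcripts were near absent in control and moderate in heat. AT5G54165, annotated as an Avr9/Cf-9 rapidly elicited protein, was at 615, 958 and 994 CPM in heat, against 0.517, 0.642 and 0.807 CPM in control (10.36 ± 0.30), and shares 87 bases on the opposite strand with AT5G54170, which rose by 2.49. AT5G25450, annotated as a small subunit of cytochrome bd ubiquinol oxidase, was at 748, 1066 and 1187 CPM in heat, against 1.02, 0.952 and 1.11 CPM in control (9.93 ± 0.25). APX2, a cytosolic ascorbate peroxidase, rose and was at 415, 475 and 422 CPM in heat, against 0.071, 0.085 and 0.073 CPM in control, too few reads for a firm fold. The galactinol synthase GolS2, which starts the synthesis of raffinose sugars, was at 81.6, 126 and 109 CPM in heat, against 0.0713, 0.141 and 0.0244 CPM in control (10.20 ± 0.33). Its fold likewise rests on few control reads, and GolS2 rose by 8.51 against batch 2. In the other direction HAM2 (chr3:22410240-22412663) and HAM1, GRAS factors that keep shoot meristem cells undifferentiated, fell together. HAM2 was at 1.71, 1.67 and 1.61 CPM in heat, against 29.6, 30.6 and 32.7 CPM in control (−4.21 ± 0.11, adjusted p = 6.81e-09). HAM1 was at 3.02, 3.30 and 2.75 CPM in heat, against 34.8, 37.5 and 42.1 CPM in control (−3.66 ± 0.13). The groups were far apart in both genes, and the 3 heat libraries of each lay close together. BGLU21, a β-glucosidase, was at 4.94, 5.87 and 3.84 CPM in heat, against 149.6, 124 and 112 CPM in control (−4.71 ± 0.19), and BGLU34 fell by 3.79 ± 0.38. AT5G54370, for a protein like late embryogenesis abundant proteins, was at 0.676, 1.2 and 0.785 CPM in heat, against 36.1, 29.2 and 26.9 CPM in control (−5.12 ± 0.22). FKF1, a blue light receptor of the day-length pathway, fell by 3.70 ± 0.15, and by 0.89 against batch 2. FRK1, a kinase gene used as a defence marker, was at 0.142, 0.386 and 2.75 CPM in heat, against 7.86, 31.5 and 52.0 CPM in control (−4.85 ± 1.2, adjusted p = 0.0137). It was not called without heat library 1 (−4.28) or control library 2 (−4.79). AT4G12500, a lipid transfer protein, was at 1.67, 2.44 and 15.1 CPM in heat, against 23.5, 106 and 200.2 CPM in control (−4.11 ± 1.2, adjusted p = 0.0269), and likewise was not called without heat library 1 (−3.65) or control library 2 (−4.11), with no low-count filter (−4.12), with all 6 Col-0 controls and a batch term (−4.11), or against batch 2 (−4.04). In these 2 genes the spread within each group was wide, with control library 1 the lowest of the controls and heat library 3 the highest in heat.

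Promoters of genes outside the heat shock set were searched for short elements in the window from 250 bases before to 50 bases after the annotated start, on both strands. The heat shock element was taken as 3 inverted units, either GAA, NN, TTC, NN, GAA or TTC, NN, GAA, NN, TTC, in a run. It was in 3.70% of 730 genes that rose at least 4-fold and 0.233% of 859 that fell at least 4-fold, against 0.496% of 21184 tested genes. By size of the rise it was in 6 of 54 genes at a log2 change of 8 or more, 7 of 224 from 4 to 8, 14 of 452 from 2 to 4 and 15 of 1081 from 1 to 2. The promoters of GolS1 and DREB2A, whose large rises are known, are shown for the 250 bases before the start because each holds such an element, in capitals.
GolS1 (chr2:19370479-19370728, minus strand): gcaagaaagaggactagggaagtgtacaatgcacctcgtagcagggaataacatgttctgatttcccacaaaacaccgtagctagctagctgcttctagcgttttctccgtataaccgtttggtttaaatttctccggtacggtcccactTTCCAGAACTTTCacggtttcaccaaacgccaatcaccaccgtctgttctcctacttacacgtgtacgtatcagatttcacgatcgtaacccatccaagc
DREB2A (chr5:1601955-1602204, plus strand): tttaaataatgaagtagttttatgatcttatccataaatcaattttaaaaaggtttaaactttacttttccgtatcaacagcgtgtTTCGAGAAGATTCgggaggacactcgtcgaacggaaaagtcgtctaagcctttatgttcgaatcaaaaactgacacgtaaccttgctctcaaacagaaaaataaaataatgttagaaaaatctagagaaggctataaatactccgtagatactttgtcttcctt
The element begins 100 bases before the start in GolS1 and 164 bases before it in DREB2A. GolS1 was at 3596, 4073 and 4307 CPM in heat, against 3.41, 3.24 and 2.38 CPM in control, and DREB2A at 1845, 1693 and 1898 CPM in heat, against 3.85, 4.72 and 3.86 CPM in control. The abscisic acid element ACGTGTC was in 8.36% of the rises and 3.03% of the falls, against 4.81% of all tested genes, and the G-box CACGTG, which can overlap it, in 13.7% and 6.40%, against 8.61%. The dehydration element CCGAC was in 20% of the rises and 12.1% of the falls, against 16.2%. CGCGTT was in 6.44% and 2.79%, against 3.78%, and the W-box TTGACC or TTGACT in 34.5% and 30.7%, against 32.8%. The telo-box was in 4.38% and 6.64%, against 5.91%, and site II in 14.1% and 8.38%, against 17.4%. PPR promoters held a telo-box in 10.2% and site II in 23.8% of 265 cases. A match is a description of the sequence, and no match says only that these letters are absent from the window.

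The response of the wild type was set against that of the line labelled eTK by a test of the difference of the heat changes, eTK minus Col-0, over 12 libraries. It called 4445 of 22341 genes (19.9%), 2166 with a more positive change in eTK (9.7%) and 2279 with a more negative change (10.2%). AT5G12110 was at 32.4, 32.5 and 33.8 CPM in heat and 28.8, 26.7 and 24.8 CPM in control in eTK. Its change was 0.30 in eTK and 5.77 in Col-0, a difference of −5.47 ± 0.15 (adjusted p = 2.16e-12). PFK3 changed by 0.12 in eTK and 5.15 in Col-0 (−5.04 ± 0.19), and AT1G33350 by −0.55 in eTK and 4.88 in Col-0 (−5.43 ± 0.22). GSTU5 changed by 1.47 in eTK and 5.71 in Col-0 (−4.24 ± 0.15), and AT4G12410 by 2.71 in eTK and 7.00 in Col-0 (−4.29 ± 0.35). Each rise was smaller in eTK than in Col-0, PFK3 was not called in eTK, and AT1G33350 fell there. These genes were picked for large changes in the same Col-0 libraries, a choice that favours smaller changes in eTK. MYB77 rose more in eTK, by 4.93, than in Col-0, by 3.74 (1.19 ± 0.13, adjusted p = 7.57e-06). For CAB2 the changes were −3.58 in eTK and −3.75 in Col-0, and the difference was not called (0.17 ± 0.25, adjusted p = 0.688). In the lists 60 of 210 ribosomal protein genes had a more negative change in eTK (medians 0.30 in eTK and 0.64 in Col-0). Among PPR genes 59 of 268 had a more positive and 18 a more negative change in eTK (medians −0.77 in eTK and −1.15 in Col-0). For plastid transcripts 35 of 72 had a more negative change (medians −0.37 in eTK and 0.88 in Col-0), and for mitochondrial transcripts 14 of 74 (medians 4.77 in eTK and 5.83 in Col-0). MYB factors had a more positive change in eTK in 29 and a more negative change in 11 of 99 cases (medians 0.42 in eTK and −0.14 in Col-0). For WRKY factors these numbers were 15 and 0 of 63 (medians 0.31 in eTK and −0.40 in Col-0).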

How the data were processed

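RNA-seq was made from whole seedlings, and the authors deposited raw read counts per gene for 27655 genes in 18 Arabidopsis libraries as whole numbers. Per the submitters' processing notes, the tools were STAR 2.7.9a, fastp 0.24.0, Subread 2.0.6 and its featureCounts. RNA selection, strand setting, annotation, build and tool settings are not given in the sources used here. The 36 Marchantia polymorpha samples of the 54 in the series were not analysed here. Of the identifiers 27445 matched TAIR10.1, and 88 plastid and 122 mitochondrial ones are given as identifiers only. Even numbers made up 77.6% to 83.3% of counts above 0 in the 6 libraries, mates may therefore have been counted each, and halved counts were tried.

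Counts of the 6 libraries were fitted with edgeR 4.0.16 (R 4.3.3) by its quasi-likelihood test, with TMM factors, filterByExpr and robust estimation, Benjamini-Hochberg adjusted p below 0.05 over 21642 genes, with a common dispersion of 0.0239. The SE was derived from the log2 change and the F statistic (its size over the root of F), and may be far too small where a group has almost no counts. The same edgeR steps were run on simulated counts in which few genes were changed, equally up and down. That run does not cover the shift in composition seen here. The difference between lines used a model with a term per group on 12 libraries and 22341 genes. No set test was run. Replicates of a group were compared in 6 pairs by chi-square, and all differed beyond sampling noise. Totals of 58370609 to 110875442 counts leave little counting error except for rare transcripts, and intervals and floors cover counting error only.

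Gene lists and members were chosen with earlier results of these data known. Named genes followed a rule: in each list the 2 largest changes of at least 2-fold in the more frequent direction and the largest in the other, with no overlap between groups and 10 CPM in the higher group, and outside all lists the 8 largest rises and falls at 20 CPM. Tables were built with Python 3.11.15 and pandas 2.3.3. Alternatives were RLE size factors, library size alone, TMM without heat shock genes, no low-count filter, DESeq2 1.42.0, a replicate block, halved counts, leaving out each library, other controls and a batch term.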

Additional observations from a re-analysis of the deposited data

Results flagged for a closer look

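The test of the difference itself, eTK minus Col-0, in edgeR over 12 libraries with Benjamini-Hochberg adjustment called 88 of 145 named genes, 33 with a more positive and 55 with a more negative change in eTK. Over all genes it called 19.9%. The named genes were chosen for large heat changes in the same Col-0 libraries, which enter this difference. Their higher share of calls is therefore favoured by the choice and is no result about them. The test was printed for the largest named change of 8 lists, of which 7 were called, and others such as DREB2A (−5.67) and UBC12 (−4.31) were called as well. AT5G12110 differed by −5.47 (alternatives −5.56 to −4.84), AT1G33350 by −5.43 (−5.54 to −4.81), PFK3 by −5.04 (−5.17 to −4.41), AT4G12410 by −4.29 (−4.64 to −3.66) and GSTU5 by −4.24 (−4.32 to −3.61). In each of these the 3 Col-0 heat libraries lay above the 3 eTK heat libraries. ATMG00690, a mitochondrial transcript that rose in both lines, differed by −1.76 ± 0.32 (adjusted p = 0.00112, alternatives −1.94 to −1.15), with 70.1, 63.3 and 62.6 CPM in eTK heat libraries and 119, 207 and 157 CPM in Col-0 heat libraries. MYB77 differed by 1.19 in the other direction (alternatives 0.94 to 1.82), with 228, 236 and 193 CPM in eTK heat libraries and 95.9, 94.1 and 98.4 CPM in Col-0 heat libraries. The groups had 3 libraries each, so no search for a library that stands apart was made within them.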

How the results depend on the processing

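Over all genes, 6252 rose, 6603 fell, and 2006 and 3241 did so at least 2-fold, and 4445 differed between lines. These counts stayed within 1.5 times under every alternative run except library size alone, which gave 1712, 14268, 1013 and 7930, and 14870 between lines. DESeq2 gave 6813, 6576, 2115 and 3114, and 5350 between lines. Leaving out a library gave 5223 to 6786, 5207 to 7218, 1855 to 2283 and 2907 to 3314, and 3425 to 6342 between lines. With a replicate block the counts were 5884, 6423, 1954 and 3269, and 3866 between lines. Deviations of samples with the same number correlated at −0.013, 0.00071 and 0.080, and those with unlike numbers at −0.23 to 0.25. With 3 libraries per group these values cannot decide whether samples were paired, so pairing stayed unknown. The block moved 4 list values: at least 2-fold rises of Aux/IAA genes to 1, at least 2-fold falls of flavonoid and nitrate genes to 2 each, and the gibberellin median relative to all genes to −0.62.

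With the batch-2 controls the changes of 4CL3 (−0.94), LHCB2.2 (0.82), LHCB4.3 (−0.17), AT3G13610 (−0.64), CT-BMY (−0.31), FLS1 (−0.96) and TT4 (−1.45) turned, as did the medians relative to all genes of bZIP factors (−0.044), photosystem and antenna genes (0.68), flavonoid genes (−1.33), phenylpropanoid genes (−0.44), sulfate genes (−0.053), iron genes (−0.65), starch genes (0.52), nitrate genes (−0.064), stress granule genes (0.083) and vasculature markers (0.49). The iron median was −0.014 with all 18 libraries and a batch term, and the medians of NAC factors (0.0033) and GH3 genes (0.18) turned with no filter. Leaving out a library turned the relative medians of ribosome biogenesis, synthetase, DEAD-box, stress granule, histone and tubulin genes. It also turned those of AP2/ERF, chlorophyll, starch and UDP-glycosyltransferase genes and vasculature markers, all of them close to the median of all genes. AT3G13610 was at 0.75 by library size alone and 0.84 with 18 libraries, and not called. The cause was not tested. Of other values of named genes under an alternative, 2292 kept direction and call and 21 kept only the direction. Genes with few counts in control have no firm fold.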
